A study of Bos taurus with 30 samples.

Results

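Of 30 small RNA libraries from the arcuate nucleus (ARC) of the hypothalamus, the 7 with the highest and the 7 with the lowest level of miRNAs known from ependymal and other multiciliated cells were compared. They were chosen from measured values in 2 steps. First, the 9 libraries with the highest mean level of 7 miRNAs that are abundant in pituitary epithelium (miR-200a, miR-200c, miR-141, miR-429, miR-182, miR-183 and miR-375) were set aside. Second, the 21 libraries left were ordered by a score, the mean of log2(value + 0.25) of miR-34b, miR-34c and miR-449a. The 7 libraries at the top are called marker-high, the 7 at the bottom marker-low and the 7 between them middle. The levels of the miRNAs used in these steps are therefore given for the classes as a description of the choice, with no test between classes. The score and its miRNAs were tested between the diets, which the choice did not use.

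The libraries came from Holstein-Friesian bull calves, with 1 library per calf. From 2 weeks of age until sampling at 12 weeks, 15 calves (HI) received 1.5 kg of milk replacer in 10 litres per day with concentrates ad libitum. The other 15 calves (MOD) received 0.5 kg of milk replacer in 4 litres with 0.5 kg of concentrates per day. The marker-high class held 3 HI and 4 MOD calves, and the marker-low class 5 HI and 2 MOD calves (Fisher's exact test, two-sided, p = 0.592).

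Ependymal cells are ciliated epithelial cells that line the brain ventricles, and the ARC lies beside the floor of the third ventricle, where much of the lining is formed by tanycytes. miR-34b and miR-34c are made from 1 primary transcript, and miR-449a, miR-449b and miR-449c from another, inside the gene CDC20B. Both groups belong to the same seed family, are abundant in multiciliated cells and take part in the formation of motile cilia. In the RefSeq annotation of assembly ARS-UCD2.0, the miR-34b and miR-34c genes overlap BTG4 and HOATZ, the latter a gene of cilia and flagella. The miR-449 genes lie beside MCIDAS, which encodes multicilin, the switch for multiciliated cell differentiation.

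Reads on miRNAs ranged from 6291376 to 21083250 per library. Values are in the form of CPM (reads on a miRNA per 1000000 reads of its library) as deposited, scaled by the authors between libraries. Each class held 2 of the 9 most deeply sequenced libraries, and total reads overlapped between the classes (mean difference -0.01 on the log2 scale, two-sided exact permutation test, p = 0.930). The 2 deep marker-low libraries, A47858 and A97821, were those with the 2 lowest scores, so depth was not balanced within the marker-low class. The mean log2 level of the 7 pituitary miRNAs was 4.45 ± 0.95 in the marker-high and 3.70 ± 0.51 in the marker-low libraries (SD, n = 7 each). This difference of 0.74 is given without a test, as the same level had been used to set libraries aside. All 5 miRNAs of the multiciliated list were detected in each of the 14 libraries. In bulk tissue, fewer cells of a type and less RNA per cell cannot be told apart.

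The score was 7.76 to 8.61 in the marker-high, 6.88 to 7.67 in the middle and 3.61 to 6.88 in the marker-low libraries. The limit between marker-low and middle had almost no width. HI calf A81983, the last marker-low library, scored 6.881, and HI calf A13745, the nearest middle library, scored 6.882. At the upper limit, HI calf A93760 was inside with 7.76 and MOD calf A47825 outside with 7.67. The marker-low class was itself uneven. HI calves A27823 and A47858 and MOD calf A97821 scored 4.64, 3.66 and 3.61, while the other 4 marker-low libraries lay between 6.19 and 6.88, next to the middle class.

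miR-34c was the most abundant of the multiciliated miRNAs. Its lowest, median and highest levels were 1522, 2035 and 4287 CPM in the marker-high libraries and 54.1, 449.9 and 1988 CPM in the marker-low ones. The classes overlapped because of A81983, in which miR-34c stood at 1988 CPM, within the range of the middle libraries (987 to 2858 CPM). In A27823, A47858 and A97821 miR-34c stood at 100.2, 130.5 and 54.1 CPM, below every other library of the 30. miR-34b stood at 87.9, 130.2 and 267 CPM in the marker-high and 4.78, 32.7 and 129.9 CPM in the marker-low libraries (lowest, median, highest). The difference between the class means was 2.91 on the log2 scale for miR-34c (SE 0.67) and 2.88 for miR-34b (SE 0.67).

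miR-449a followed another order. It stood at 38.4, 99.9 and 237 CPM in the marker-high and 2.33, 21.2 and 73.0 CPM in the marker-low libraries (lowest, median, highest). In the middle class, with 8.46 to 46.7 CPM and a median of 14.6 CPM, its median was below that of the marker-low class. The highest value was that of MOD calf A61973, in which miR-34c was the lowest of the marker-high class at 1522 CPM. In HI calf A27848 of the marker-low class, miR-449a reached 73.0 CPM, above 3 of the 7 marker-high libraries, while miR-34c was at 449.9 CPM.

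The cluster mates of miR-449a, which the score did not use, had the same shape at a lower level. miR-449b stood at 3.84 to 36.5 CPM in the marker-high and 0.259 to 6.36 CPM in the marker-low libraries, and miR-449c at 2.53 to 37.8 CPM and 0.259 to 7.56 CPM. As they come from the transcript of miR-449a, no test was made. The lowest of these values rest on 5 reads. miR-449d was listed at 0 in most libraries and did not pass the filter on low values.

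**Figure D1:**
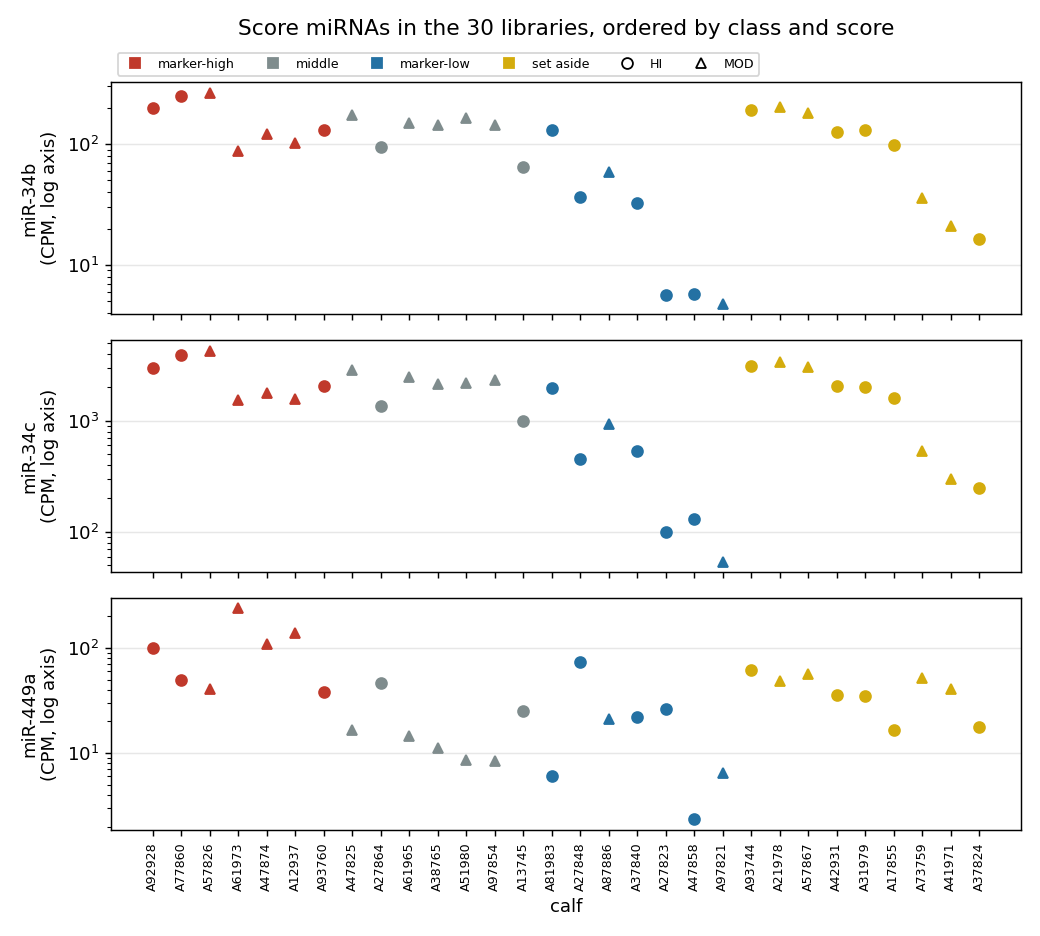
Level of miR-34b, miR-34c and miR-449a (CPM, log axes) in each of the 30 libraries, ordered by class and then by score; circles are HI and triangles MOD calves. The 3 lowest marker-low libraries stand below all others for miR-34b and miR-34c (54.1 to 130.5 CPM for miR-34c), while miR-449a in the middle class (8.46 to 46.7 CPM) lies in the range of the marker-low class.

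The score was next compared between the diets in all calves, which were not chosen by it. It was 6.91 ± 1.43 in the HI and 7.30 ± 1.26 in the MOD calves (SD, n = 15 each), a difference of -0.38 (two-sided permutation test with 100000 resamples, p = 0.445). The ranges overlapped almost wholly, from 3.66 to 8.61 in HI and from 3.61 to 8.49 in MOD calves. Within the 9 deeply sequenced libraries the difference was -0.60, and within the other 21 it was -0.47. Among the 9 calves with the lowest animal codes, a class first found from the values and holding 7 HI calves, the difference was -1.67, and among the other 21 calves it was 0.06. Over those code classes the within-class permutation gave p = 0.426.

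The single miRNAs of the score did not pass the test for diet either. In limma over 476 miRNAs and all 30 libraries, the HI minus MOD difference was -0.51 on the log2 scale for miR-34b (SE 0.57, adjusted p = 0.982), -0.45 for miR-34c (SE 0.58, adjusted p = 0.982) and -0.19 for miR-449a (SE 0.51, adjusted p = 0.984). limma called no miRNA in this comparison (0% of those tested), and 8 (1.68%) were higher and 13 (2.73%) lower in HI at an unadjusted p under 0.05. The paper, which used edgeR on its own counts, reported 1 miRNA between the diets, miR-2419-3p, as higher in HI. In the edgeR test the 3 score miRNAs had no adjusted p under 0.998, and in the DESeq2 test none under 0.986.

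Over all other miRNAs, the question was which ones differ between marker-high and marker-low libraries. Of 464 miRNAs tested with limma, 0 were called at an adjusted p under 0.1 with a fold change above 1.5 (0% of those tested). The smallest adjusted p was 0.502. At an unadjusted p under 0.05 stood 35 miRNAs (7.54%), 19 with the higher level in the marker-high libraries (4.09%) and 16 with the lower (3.45%). That split depended on the scaling, with 19 higher and 8 lower when values were scaled by library size only, and 13 higher and 29 lower with DESeq2 size factors. Library size scaling moved the median of all tested miRNAs from 0.01 to 0.11. The edgeR quasi-likelihood test on recovered reads called 0 (38 at an unadjusted p under 0.05), and the DESeq2 Wald test called 1, miR-219-3p. For 0 of the 464 miRNAs (0%) did the 7 marker-high and the 7 marker-low libraries lie wholly apart. A difference past the 1.5-fold limit was seen for 13 miRNAs (2.8%), for 6 miRNAs that were higher (1.29%) and 7 that were lower (1.51%).

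**Figure D2:**
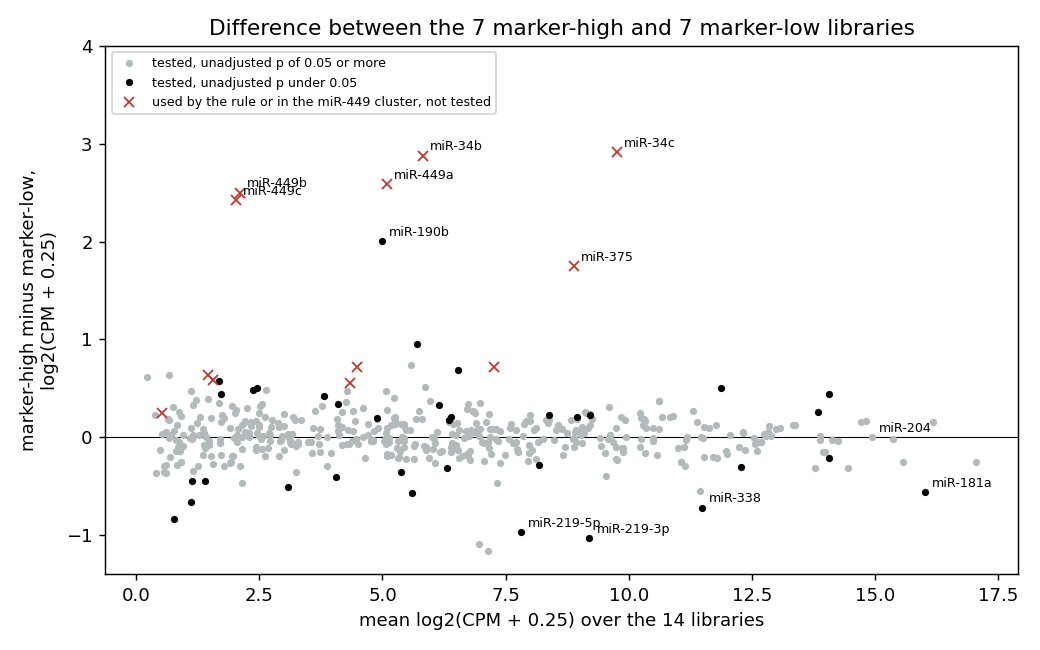
Difference between the means of the 7 marker-high and 7 marker-low libraries (log2 scale) against the mean level of each miRNA; black points had an unadjusted p under 0.05, grey points did not, and red crosses were used by the rule or lie in the miR-449 cluster. miR-190b, at 2.00, is the tested miRNA farthest above 0. limma called no tested miRNA, and the DESeq2 Wald test called miR-219-3p.

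The 5 miRNAs with the smallest p were miR-130b, miR-190b, miR-2454-3p, miR-424-3p and miR-7862, all with an adjusted p of 0.502 in limma. miR-190b had by far the largest difference among them. Its lowest, median and highest levels were 32.1, 61.9 and 119 CPM in the marker-high and 4.46, 25.6 and 57.3 CPM in the marker-low libraries. The 3 lowest libraries by score had 4.46, 5.76 and 7.02 CPM, and the other 4 marker-low libraries, with 25.6 to 57.3 CPM, overlapped with the marker-high class. The difference was 2.00 on the log2 scale (SE 0.55, 4.01-fold, unadjusted p = 0.00242). It was 1.70 within the less deeply and 2.76 within the more deeply sequenced libraries. The deep marker-low libraries, A47858 and A97821, were both among the 3 lowest by score. The adjusted p of miR-190b ranged from 8.27e-05 to 0.999 over the alternatives. miR-190a, whose mature sequence is close to that of miR-190b and which was looked at only after these values were seen, stood at 16.97 to 27.7 CPM in the marker-high and 18.2 to 31.6 CPM in the marker-low libraries.

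The other 4 of these miRNAs differed by less. miR-130b, of the miR-130 and miR-301 family, stood at 62.6, 71.2 and 77.2 CPM in the marker-high and 76.9, 83.2 and 109.6 CPM in the marker-low libraries (lowest, median, highest). The classes met at 1 library each, A93760 and A81983, and the log2 difference was -0.32 (SE 0.09, unadjusted p = 0.00225). miR-424-3p, the lesser arm of a miRNA of the miR-15 and miR-16 seed family, stood at 10.0 to 16.8 CPM against 15.1 to 23.6 CPM (log2 difference -0.41, SE 0.13). miR-2454-3p stood at 2.61 to 5.49 CPM against 1.70 to 3.30 CPM (log2 difference 0.57, SE 0.17). miR-7862 stood at 2.45 to 4.54 CPM against 2.05 to 2.98 CPM (log2 difference 0.44, SE 0.14). None of the 4 had classes that lay wholly apart.

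The 5 most abundant miRNAs of the table were miR-26a, miR-181a, miR-143, miR-9-5p and miR-127. miR-181a, abundant in brain, stood at 48558 to 64950 CPM in the marker-high and 50489 to 176343 CPM in the marker-low libraries (log2 difference -0.56, SE 0.23, adjusted p = 0.524 in limma). Its 3 highest marker-low values were those of the 3 lowest libraries by score. For the other 4 the classes overlapped, with log2 differences of -0.26 for miR-26a (SE 0.18), 0.15 for miR-143 (SE 0.36), -0.25 for miR-9-5p (SE 0.16) and -0.02 for miR-127 (SE 0.07). The signs for miR-143, miR-9-5p and miR-127 turned under some alternatives, that of miR-127 under library size scaling (0.09).

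Lists of miRNAs of other tissues and cell types were then read for the same 14 libraries. In limma no member of any list was called, against 0% of all miRNAs tested, while the DESeq2 Wald test called miR-219-3p of the oligodendrocyte list, and the median log2 difference of all 464 miRNAs was 0.01. The choroid plexus, the ciliated epithelium that makes cerebrospinal fluid, is marked by miR-204 and miR-211. miR-204 stood at 25046, 32560 and 37606 CPM in the marker-high and 22099, 31726 and 43990 CPM in the marker-low libraries (lowest, median, highest). The marker-low range held the marker-high one, and the log2 difference was -0.00 (SE 0.15), with 0.10 under library size scaling, which is the shift of all miRNAs. miR-211 stood at 45.0 to 67.4 CPM against 47.5 to 83.2 CPM (log2 difference -0.08, SE 0.14), and 0.02 under library size scaling.

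The miRNAs of oligodendrocytes, the myelin-forming cells, had differences opposite in sign to the score. All 3 that passed the filter had an unadjusted p under 0.05 and a lower mean in the marker-high libraries, with a median log2 difference of -0.97, against 3.45% of all miRNAs tested at that p and sign. miR-219-3p stood at 266.7, 427 and 560 CPM in the marker-high and 407, 1029 and 2545 CPM in the marker-low libraries (lowest, median, highest). A27823, A47858 and A97821 had 2545, 1029 and 1443 CPM, and A27848 had 1069 CPM, while the other 3 marker-low libraries lay within the marker-high range. The log2 difference was -1.03 (SE 0.37, adjusted p = 0.502 in limma). In the DESeq2 Wald test it was -1.36 with an adjusted p of 0.0710, and its adjusted p ranged from 0.00861 to 0.999 over the alternatives.

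The other arm and the other oligodendrocyte miRNA were alike. miR-219-5p stood at 96.4, 171 and 254 CPM against 156, 286 and 912 CPM (log2 difference -0.97, SE 0.38, adjusted p = 0.524 in limma). miR-338 stood at 1812, 2156 and 2769 CPM against 2137, 3927 and 10419.5 CPM (log2 difference -0.72, SE 0.29, adjusted p = 0.524 in limma). The classes overlapped for both. Without the 3 lowest libraries by score the log2 differences were -0.37 for miR-219-3p, -0.37 for miR-219-5p and -0.19 for miR-338. The summed level of the list was 5419 to 13877 CPM in those 3 libraries, 2702 to 5402 CPM in the other 4 marker-low and 2176 to 3552 CPM in the marker-high libraries.

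The neuron list had 13 miRNAs tested, of which 7 had a positive and 6 a negative difference (range -0.25 to 0.37, median 0.12), and 0 had an unadjusted p under 0.05. miR-124a, a neuron-specific miRNA, stood at 5745 to 8083 CPM in the marker-high and 5013 to 8769 CPM in the marker-low libraries (log2 difference -0.04, SE 0.12, and 0.06 under library size scaling, below the shift of all miRNAs). The rows of miR-124b and of miR-129-5p repeat those of miR-124a and miR-129 value for value, so the list holds fewer independent miRNAs.

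The lists of vessel and blood cells showed small differences. For the endothelial miR-126 neither arm was called, with a log2 difference of -0.30 for miR-126-3p (SE 0.14, unadjusted p = 0.0529 in limma). For miR-126-5p it was -0.16 (SE 0.13, unadjusted p = 0.258 in limma), and the marker-low range of 12254 to 22791 CPM held the marker-high one of 13026 to 19829 CPM. All 5 rows of the fibroblast and meninges list had a positive difference (median 0.27, range 0.10 to 0.36) and 0 had an unadjusted p under 0.05. The row of miR-199c repeats that of miR-199a-3p to within 0.161%, so these 2 are not independent. The smooth muscle and pericyte list had a median of 0.14 over 2 miRNAs. Among 7 leukocyte and microglia miRNAs the median was -0.07, and miR-142-3p alone had an unadjusted p under 0.05 (78.2 to 104.6 CPM against 71.2 to 86.5 CPM, log2 difference 0.18, SE 0.08). The 3 erythroid miRNAs had a median of -0.09 and the 2 striated muscle miRNAs that passed the filter one of 0.03. miR-122 of liver did not pass the filter and reached 0.761 CPM at most in the 14 libraries.

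The pituitary list had positive differences. miR-7, a neuroendocrine miRNA and the only member that had not been used to set libraries aside and passed the filter, stood at 3671, 4490 and 5536 CPM in the marker-high and 1969, 3714 and 4844 CPM in the marker-low libraries (lowest, median, highest). The 3 lowest libraries by score had 1969, 2268 and 2132 CPM, and the other 4 marker-low libraries, with 3714 CPM or more, lay in the marker-high range. The log2 difference was 0.50 (SE 0.20, unadjusted p = 0.0249, adjusted p = 0.524 in limma) and 0.08 without those 3. miR-375, used by the rule and given here without a test, stood at 652 to 1268 CPM in the marker-high and 75.7 to 606 CPM in the marker-low libraries. The 9 libraries set aside had 3192 to 47575 CPM. The part of this difference in the other results was not tested. limma with the pituitary score as a term called 0 miRNAs, but so did the fit without it, so these counts cannot show such a part. At an unadjusted p under 0.05 stood 15 higher and 17 lower miRNAs with the term, against 19 and 16 without it.

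**Figure D3:**
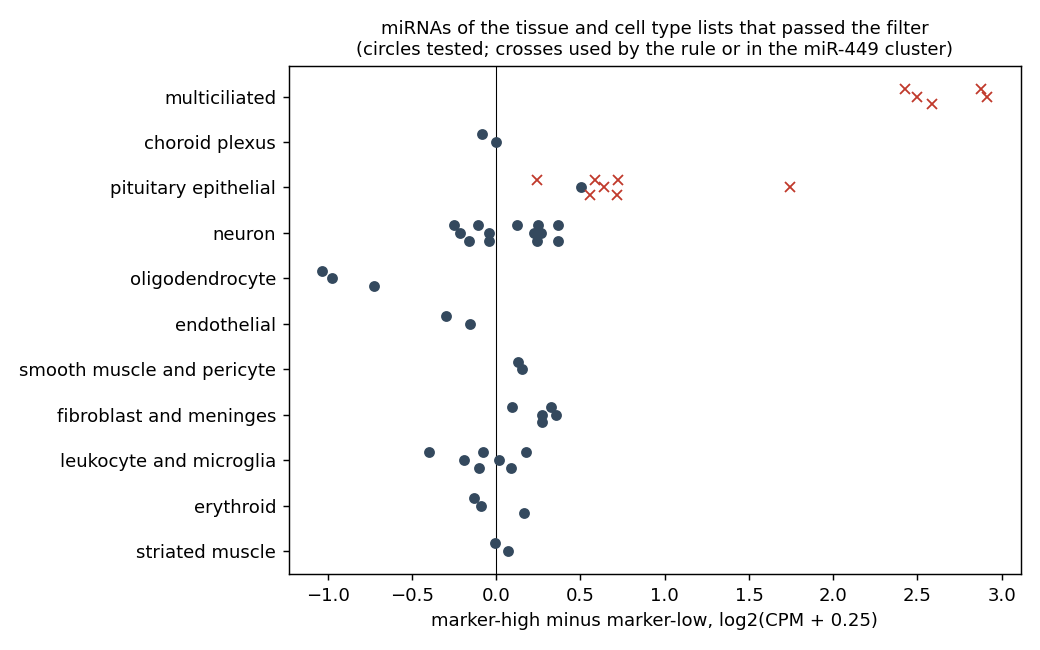
Log2 difference between the 7 marker-high and 7 marker-low libraries for each miRNA of the tissue and cell type lists that passed the filter; circles were tested, and crosses were used by the rule or lie in the miR-449 cluster. The 3 oligodendrocyte miRNAs lie between -1.03 and -0.72 and the choroid plexus miRNAs near 0.

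The 3 lowest libraries, 2 HI and 1 MOD, differed from the other 18 libraries that had not been set aside in more than the score. The groups of 3 and 18 were seen only after the values were examined, so they are described without a test. In all 3, 9 of the 464 miRNAs (1.94%) lay below the range of the 18: miR-129, its duplicate row miR-129-5p, miR-153, miR-181c, miR-190b, miR-212, miR-323b-3p, miR-499 and miR-6524. A further 7 (1.51%) lay above it: let-7b, miR-93, miR-128, miR-151-5p, miR-450b, miR-2285br and miR-2316. Of these 16, miR-190b was the farthest below, at 4.46 to 7.02 CPM against 25.6 to 163.5 CPM in the 18. miR-323b-3p, of the imprinted DLK1-DIO3 region, stood at 34.5 to 54.6 CPM against 72.1 to 160.8 CPM. miR-338 and miR-219-3p, at 4102 to 10419.5 CPM and 1029 to 2545 CPM, overlapped with the 18. A13745, with 4844 and 1246 CPM, lay inside their range for both, and A27848, with 1069 CPM, for miR-219-3p.

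The comparison was also made with the score as a continuous term, with and without the 3 libraries. Over the 21 libraries, limma called 59 of 464 miRNAs at an adjusted p under 0.1 (12.7%), 27 rising with the score (5.82%) and 32 falling (6.90%). miR-190b had the smallest adjusted p, with a slope of 0.81 log2 units per unit of score (SE 0.11, adjusted p = 8.27e-05). The 3 oligodendrocyte miRNAs fell with the score over the 21 libraries, with a slope of -0.40 for miR-219-3p (SE 0.09, adjusted p = 0.00861). Of the neuron list, 4 rose, namely miR-153, miR-212, miR-129 and its duplicate row miR-129-5p, and 2 fell, namely miR-128 and miR-9-5p. miR-7 of the pituitary list rose, with a slope of 0.23 (SE 0.06, adjusted p = 0.0153 in limma), and had a slope of 0.10 (SE 0.12) without the 3 libraries. Over the 18 libraries left without the 3, 0 miRNAs were called (0%) and 5 had an unadjusted p under 0.05 (1.08%). The range of the score was then smaller. Of the 59 miRNAs called over the 21, 52 had a slope of the same sign over the 18 and 7 of the other sign, and the median size of their slopes was 0.04 against 0.12. miR-212 turned from 0.14 to -0.02, and miR-129 and miR-128 went from 0.18 and -0.11 to 0.02 and -0.01. The slope of miR-190b was 0.50 (SE 0.23, unadjusted p = 0.0412, adjusted p = 0.996 in limma) and that of miR-219-3p -0.27 (SE 0.18). For miR-130b the slope was -0.10 over the 18 libraries against -0.11 over the 21, and for miR-424-3p -0.24 against -0.13. In the 7 against 7 comparison without the 3, limma called 0 and 7 miRNAs had an unadjusted p under 0.05, with a log2 difference of 0.93 for miR-190b.

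The 2 transcripts behind the score were then followed in the 18 libraries. Within each transcript the miRNAs moved together: on the log2 scale Pearson's r was 0.992 between miR-34c and miR-34b, 0.966 between miR-449a and miR-449b and 0.976 between miR-449a and miR-449c. Between miR-34c and miR-449a it was -0.12 (Spearman's rho -0.18, -0.08 without the 2 libraries farthest from the median of miR-34c). As these miRNAs made or accompany the score, the values are given without a test, and they share the scaling of each library. Because the markers of the score did not move as one, the classes are called by the score and not by a cell type. A score of miR-34b and miR-34c alone would have kept 3 of the 7 marker-high and 6 of the 7 marker-low libraries, and miR-449a alone 5 and 3.

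miR-190b, which was in no score, was set beside both transcripts. Over the 18 libraries its r with miR-34c was 0.80 and Spearman's rho 0.86. Without the 2 libraries farthest from the median of miR-34c, r was 0.75. miR-190b had been picked by its p between classes built on miR-34c, and 11 of the 18 libraries were in those classes, so these values are given without a test. With miR-449a its r was -0.28 and rho -0.27. In these 18 libraries miR-190b was lowest in A27848, at 25.6 CPM, the library with the lowest miR-34c, and highest in MOD calf A47825, at 163.5 CPM, the middle library with the most miR-34c.

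miR-338 and miR-219-3p of oligodendrocytes and miR-204 of the choroid plexus were also set beside miR-34c in the 18 libraries. The 18 were formed after the values were seen, by leaving out the 3 libraries with the least miR-34c. Those 3 had 4102 to 10419.5 CPM of miR-338 and 1029 to 2545 CPM of miR-219-3p. The tests below therefore cover a cut range of miR-34c and cannot decide whether the levels are related. The other members of both lists were not run. Of 22 relations computed in all, Pearson's r was -0.25 for miR-338 (two-sided permutation test with 100000 resamples, p = 0.325, adjusted p = 0.376; rho -0.01, permutation p = 0.961, adjusted p = 0.961) and -0.13 without the 2 farthest libraries. For miR-219-3p it was -0.30 (permutation p = 0.223, adjusted p = 0.316; rho -0.05, permutation p = 0.852, adjusted p = 0.893) and -0.14 without them. For miR-204 it was -0.28 (permutation p = 0.258, adjusted p = 0.316; rho -0.28, permutation p = 0.256, adjusted p = 0.375) and -0.32 without them. In the RefSeq annotation of ARS-UCD2.0, the miR-190b gene overlaps UBAP2L and has as its nearest coding neighbours CFAP141, a gene of cilia and flagella, and TPM3, a tropomyosin gene.

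**Figure D4:**
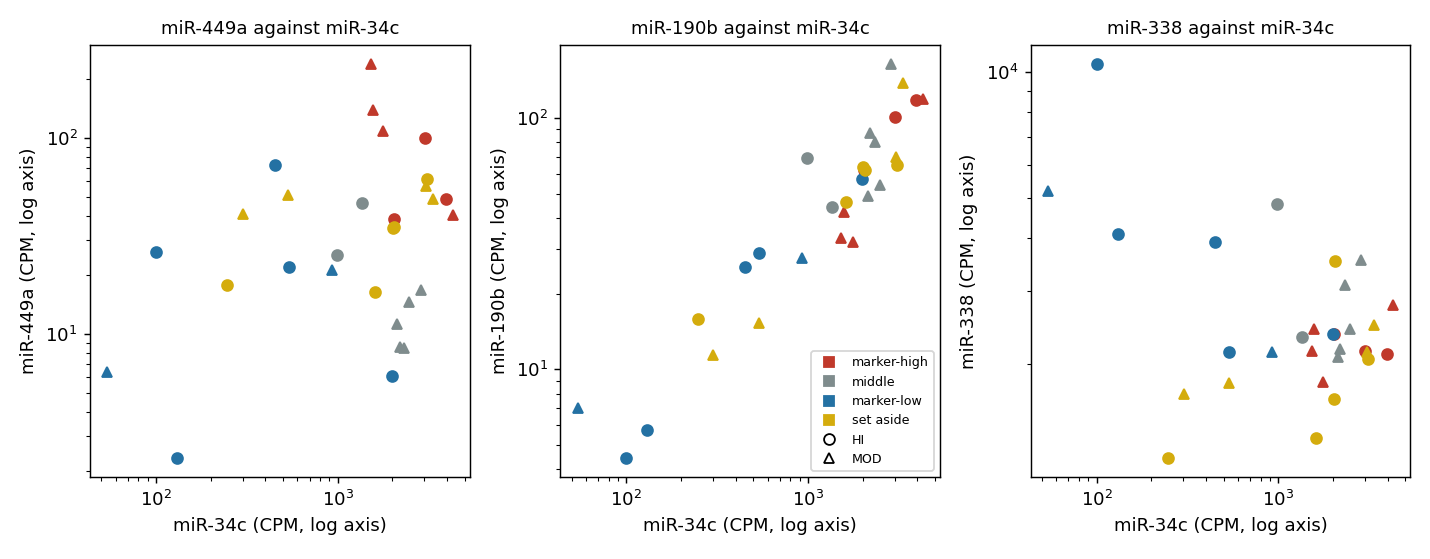
Level of miR-449a, miR-190b and miR-338 against that of miR-34c (CPM, log axes) in the 30 libraries, coloured by class; circles are HI and triangles MOD calves. miR-190b has r = 0.80 with miR-34c in the 18 libraries, miR-449a has r = -0.12 there, and miR-338 is highest in the marker-low library A27823 at 10419.5 CPM.

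The 9 libraries set aside gave a set in which neither the classes nor miR-190b had been chosen. In them miR-34c again varied widely. It stood at 1611 to 3345 CPM in 6 libraries and at 247, 301 and 535 CPM in HI calf A37824 and MOD calves A41971 and A73759. miR-190b stood at 46.4 to 138 CPM in the same 6 and at 15.8, 11.4 and 15.3 CPM in the same 3. Because the 9 fell apart on miR-34c, the relation was read within the 6. There r between miR-34c and miR-190b was 0.75 and Spearman's rho 0.89. They are given without a test, because the 6 were cut by miR-34c itself. Leaving out the 2 farthest libraries gave r 0.75, over few libraries. Of the 6, A21978 had the most miR-34c and the lowest pituitary score, 7.83, and A17855 the least miR-34c and a score of 10.9. The part of the pituitary level in this relation was not tested within the 6. Between miR-34c and miR-449a r was 0.92 in the 6 (rho 0.83, r 0.996 without the 2 farthest, over few libraries). Over all 9 this r was 0.41, and 0.17 without the 2 farthest. In the 3 libraries with little miR-34c, miR-449a stood at 17.7, 40.7 and 51.2 CPM, within the 16.4 to 61.7 CPM of the 6. miR-338 and miR-219-3p of the oligodendrocyte list lay lower in those 3 libraries than in most of the 6, opposite to the 3 lowest of the 21, with overlap. miR-338 stood at 1197, 1699 and 1801 CPM in the 3 and at 1330 to 3527 CPM in the 6, and miR-219-3p at 171, 319 and 309.8 CPM against 204 to 826 CPM. miR-219-5p stood at 56.7, 111 and 132 CPM in the 3 and at 63.6 to 357 CPM in the 6, with both MOD calves of the 3 inside the range of the 6. Over all 9, Spearman's rho with miR-34c was 0.75 for miR-338 and 0.73 for miR-219-3p, and Pearson's r 0.57 and 0.48. These are given without a test because the 9 fell apart on miR-34c. The 6 were separated by their miR-34c only after its values were seen.

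With the score as a term over the 9 libraries, limma called 209 of 464 miRNAs at an adjusted p under 0.1 (45.0%), 131 rising (28.2%) and 78 falling (16.8%). miR-190b rose with the score by 1.03 log2 units per unit (SE 0.15, adjusted p = 0.00247). The level of the pituitary miRNAs moved with the score here. Pearson's r between both scores was -0.85 and Spearman's rho -0.90, given without a test because the 9 were chosen by the pituitary score. Leaving out the 2 farthest libraries gave r -0.80. In the 18 libraries described above the sign was the other one, with r 0.39 and rho 0.25 (r 0.64 without the 2 farthest), also given without a test. The 3 libraries with the least miR-34c had the 3 highest pituitary scores, between 11.5 and 11.9. With the pituitary score as a further term, limma called 0 miRNAs (0%), 72 had an unadjusted p under 0.05 (15.5%), and the slope of miR-190b was 0.68 (adjusted p = 0.263). In these 9 libraries the 2 scores cannot be told apart.

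By list, all 5 rows of the fibroblast and meninges list, with miR-199c and miR-199a-3p as near-duplicates, fell with the score, as did miR-7 and 1 member each of the endothelial, smooth muscle and pericyte, and striated muscle lists. These stand against 16.8% of all miRNAs falling and 28.2% rising. miR-7 had risen over the 21 libraries, and with the pituitary score as a further term its slope in the 9 was 0.09 (SE 0.13). Of the 13 neuron miRNAs 8 rose, with miR-124a and miR-124b as duplicate rows among them, and of the 3 erythroid miRNAs miR-486. Of the 3 oligodendrocyte miRNAs miR-338 rose, with a slope of 0.28 (SE 0.11, adjusted p = 0.0785), against its fall over the 21 libraries. With the pituitary score as a further term its slope in the 9 was -0.01 (SE 0.19, adjusted p = 0.987), and those of miR-219-3p and miR-219-5p were -0.18 and -0.16 (SE 0.27 and 0.34), in place of 0.35 and 0.40 without that term. The difference between these slopes was not tested. miR-204 and miR-211 were not called in either set. In the 7 middle libraries alone, where neither the marker-high nor the marker-low libraries took part, the score as a term called 0 miRNAs (0%), with 9 at an unadjusted p under 0.05 (1.94%).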

How the data were processed

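Small RNA libraries of the ARC of 30 bull calves were analysed. Per the paper's methods, reads were trimmed by the authors with Cutadapt and selected for a length of 15 to 28 bases, other classes of short RNA were filtered out, and miRDeep2 counted reads on the bovine miRNAs of miRBase (ARS-UCD1.2 genome). The table the authors deposited holds 1 signal value per calf and miRNA, of the form of CPM over scaled library sizes. The normalization is not given in the sources used here. The labels name a stranded RNA kit, the paper a small RNA kit.

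Tests used limma 3.58.1 (lmFit, eBayes with trend) on log2(value + 0.25), with Benjamini-Hochberg adjustment. A call needed an adjusted p below 0.1 together with more than a 1.5-fold change, or the adjusted p alone for slopes. The fold change understates changes of low miRNAs. filterByExpr over the 30 libraries kept 476 miRNAs, of which 12 (the score and pituitary miRNAs, miR-449b and miR-449c) were described without a test. Reads were recovered from the step of 1 read, with 94.5% to 97.9% of values under 200 reads whole within 0.1 read, for edgeR 4.0.16 and DESeq2 1.42.0 as alternatives. HI calf A31979, for which fewer low values were multiples of 1 step than required in a separate check, was left out of both count tests. By the share given above it stood at 95.5%, and libraries with a lower share were kept. As A31979 is a library set aside, only the count tests between the diets were affected. Single values used permutation tests in scipy 1.17.1. R was 4.3.3 and Python 3.11.15. Each library is 1 calf, and p-values rest on the spread between calves. Because the classes came from measured values, a p between them describes the association of a miRNA with the score, not an effect of a condition. The paper states that the diets were balanced for farm of origin and sire. Calves can therefore share a farm or sire, and neither was a term in any fit. No interval for counting error is given.

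The members, the 13 miRNA lists and the tests were chosen with earlier results of these data known. Named are the score miRNAs and their clusters, tested list members, the 5 miRNAs with the smallest p and the 5 most abundant; the miRNAs outside the range of the 18 libraries and miR-190a were named after their values were seen. The code was tested on simulated data. Alternatives covered the pseudocount, filter, scaling, tool, covariates, score, class size and each library left out.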

Additional observations from a re-analysis of the deposited data

Results flagged for a closer look

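miR-9-5p in MOD calf A12937 stood at 55627 CPM, apart from the other 6 marker-high libraries, which stood between 41189.7 and 46305 CPM. The gap was 0.610 of the range of the class on the log2 scale, above the critical value of 0.568 for 7 samples (Dixon's criterion). It was the only one of 56 groups tested to be singled out, and chance alone does so in about 5% of groups.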

How the results depend on the processing

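The count of 0 miRNAs between marker-high and marker-low libraries was 0 under 17 of 21 other settings and with the leaving out of each library in turn (0 to 0). It was 1 with the DESeq2 Wald test (miR-219-3p), 1 with the score of miR-34b and miR-34c alone, 1 with no library set aside (both miR-190b) and 59 with the score as a continuous term over 21 libraries, and 0 with that term over the 18 left without the 3 lowest. At an unadjusted p under 0.05 the 35 miRNAs became 78 without A37840, 63 without A81983, 22 without A97821 and 86 with A13745 in place of A81983. In the shallower libraries alone 5 higher and 4 lower miRNAs were left. The causes were not tested. In the 9 libraries set aside, the 209 miRNAs became 0 with the pituitary score as a term and 0 in the 7 middle libraries, and 107 to 216 with each library left out, 107 being without A37824. The diet difference of the score kept its sign and missed the 0.05 threshold in the settings that gave a test (-0.65 to -0.15 with each calf left out, p 0.144 to 0.741), but was 0.06, without a test, among the 21 calves outside the class of low animal codes.

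The sign turned for 6 of the single miRNAs. With library size scaling miR-204 became 0.10, miR-211 0.017, miR-127 0.086 and miR-124a 0.059. With the pituitary score as a term miR-204 became 0.015, miR-127 0.00272 and miR-124a 0.030. With the score of miR-449a miR-204 became 0.044 and miR-211 0.039. miR-204 also became 0.018 with 10 against 10 libraries, 0.010 in the shallower libraries and 0.035 with A13745 in place of A81983. miR-143 became -0.12 with diet as a term, -0.13 with the score of miR-34b and miR-34c and -0.41 with no library set aside, where miR-9-5p became 0.27 and miR-124a 0.54. miR-127 became 0.00295 with animal code as a term, 0.021 with 5 against 5 libraries and 0.00489 as a slope over 21 libraries, and miR-124a 0.040 without the 3 lowest. With each library left out, miR-204 ranged from -0.085 to 0.081, miR-143 from -0.057 to 0.31, miR-127 from -0.052 to 0.0098 and miR-124a from -0.11 to 0.020.

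No paired analysis was possible because every calf was fed 1 diet only, gave 1 library and carries no number that a calf of the other class or diet shares. The classes were cut where scores nearly touch, 3 libraries widen the range of the score, and depth limits miRNAs of a few CPM, where 3 reads are worth 0.138 to 0.558 CPM.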
